A study of Mus musculus with 21 samples.

Results

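The 5 dopamine receptor genes (Drd1, Drd2, Drd3, Drd4 and Drd5), the gene for the histamine-forming enzyme (Hdc) and 3 histamine receptor genes (Hrh1, Hrh2 and Hrh3) were followed in newborn mouse brain. These 9 genes were matched by symbol among the 31883 genes of a table of normalized read counts, which compares the subcommissural organ (SCO) with the hippocampus. The set was chosen by its measured values: it was proposed after the counts of Drd1, Hdc and Hrh3 in SCO and hippocampus had been seen. The contrast between the tissues is therefore given for these 9 genes as a description, without a test.

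The study sequenced RNA from the SCO and the hippocampus of C57BL/6 mice at postnatal day 0 (P0) and postnatal day 60. The P0 libraries used here were 4 of SCO and 5 of hippocampus, with no treatment or engineered allele named for either tissue, and the 12 libraries of postnatal day 60 were not analysed here. The SCO is a small gland of specialised ependymal cells under the posterior commissure, at the passage from the third ventricle to the aqueduct, and it secretes the giant glycoprotein SCO-spondin. The labels do not say whether a library came from 1 animal or from pooled animals, so every p-value below measures only the spread between these libraries, which may be technical.

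Dopamine receptors are G protein-coupled receptors of 2 classes. Drd1 and Drd5 form the D1 class, which raises cyclic AMP through stimulatory G proteins, and Drd2, Drd3 and Drd4 form the D2 class, which lowers it through inhibitory G proteins. Histamine is made from histidine by histidine decarboxylase, the product of Hdc, and in the brain it is best known from neurons of the tuberomammillary nucleus and from mast cells. Its receptors couple to different G proteins: Hrh1 to the Gq family and phospholipase C, Hrh2 to the stimulatory family, and Hrh3 to the inhibitory family. Hrh3 is known as a receptor through which histamine neurons limit their own release.

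Depth ran from 35379988 to 151009954 counted reads per library, so that 1 read was worth 0.366 to 1.65 normalized counts. The labels of tissue fitted defining genes. Sspo, which encodes SCO-spondin, lay between 2027 and 9721 normalized counts in SCO and at 3.30 or less in hippocampus. Of the 9 SCO genes listed, Msx2 had no read in SCO, and Wnt1 had none in hippocampus. One SCO library, replicate 4, stood apart by a summed level of 237303 over 14 choroid plexus genes, against 20399 to 20613 in the other SCO libraries and 4939 to 17563 in hippocampus.

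Of the 9 genes, 3 were higher in every SCO library than in any hippocampus library: Drd1, Hdc and Hrh3. The same held for 4.78% of the 28150 genes tested, and since the set was chosen for this contrast nothing is read from the count of 3. For Hrh3 it rested on 2 reads in SCO replicate 4. Drd1, Hdc and Hrh3 all lie on the minus strand, and RefSeq bases upstream of their RefSeq starts (build GRCm38.p6) are printed because these members carry the contrast. Of the 250 bases before each start, the nearest 47 for Drd1 and 81 for Hrh3 were left out, because annotated exons reach into them. The Drd1 and Hrh3 runs therefore end short of the RefSeq start, and only the Hdc run reaches it. Each run reads 5′ to 3′ toward the RefSeq start and holds no annotated exon base. Capitals mark the GC box GGGCGG and the sequence CCAAT on either strand. The runs cover chr13:54055706-54055908 for Drd1, chr2:126618679-126618928 for Hdc and chr2:180104489-180104657 for Hrh3.
Drd1: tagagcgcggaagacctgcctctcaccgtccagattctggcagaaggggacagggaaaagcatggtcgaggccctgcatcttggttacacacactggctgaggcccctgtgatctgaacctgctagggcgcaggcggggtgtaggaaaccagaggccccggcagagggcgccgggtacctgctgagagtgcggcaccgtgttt
Hdc: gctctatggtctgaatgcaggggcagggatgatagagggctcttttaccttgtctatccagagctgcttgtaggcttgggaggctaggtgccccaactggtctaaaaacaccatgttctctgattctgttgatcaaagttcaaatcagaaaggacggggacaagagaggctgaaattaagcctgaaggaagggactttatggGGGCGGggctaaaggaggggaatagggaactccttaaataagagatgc
Hrh3: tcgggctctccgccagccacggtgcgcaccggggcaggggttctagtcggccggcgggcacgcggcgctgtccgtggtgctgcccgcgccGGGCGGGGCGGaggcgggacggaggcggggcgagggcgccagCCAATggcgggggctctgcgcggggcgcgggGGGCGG

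The 3 upstream windows have little in common. All promoters used for comparison were cut to the length of the window by dropping the bases nearest the start. The Hrh3 window held 28 CpG sites in 169 bases, more than 98.9% of the 32851 promoters in the table cut in this way, whose median was 3. It held 3 GC boxes, of which the first pair overlaps by 1 base, and 1 CCAAT. A GC box is in 19.3% and CCAAT in 23.0% of windows of that length. The Hdc window held 2 CpG sites in 250 bases, against a median of 6, and 1 GC box, which 32.7% of such windows hold. It also held 1 E-box, CANNTG, found in 66.2% of them. The Drd1 window held 11 CpG sites in 203 bases against a median of 4, and no match to any of the 6 motifs searched on both strands: the 3 named (GGGCGG for the GC box), the TATA box TATAAA, the core TGACG of cyclic AMP response elements and the Otx-type homeobox motif TAATCC. At that length those 6 are found in 25.2% (GGGCGG), 28.9% (CCAAT), 59.5% (CANNTG), 9.27% (TATAAA), 13.0% (TGACG) and 5.29% (TAATCC) of windows. A match describes letters in the window and is not a binding site. Drd1 has 2 starts in the table, and the farther upstream was used.

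Drd1, the main dopamine receptor of striatal neurons that project to the substantia nigra, was the member with the highest mean count in SCO, although Hdc exceeded it in SCO replicates 3 and 4. The gene lies at chr13:54051183-54055705 (GRCm38, minus strand). Its 4 SCO libraries held 1082, 3528, 2050 and 845 normalized counts, from 725, 2389, 2245 and 755 reads. The 5 hippocampus libraries held 47.4, 1.65, 0, 249 and 0. All SCO values were high, and the lowest of them was 3.40 times the highest hippocampus value, so the tissues did not overlap. Within the hippocampus, 3 libraries had at most 1 read, while replicate 4 had 680. The mean in SCO was 1876 ± 1218 (SD, n = 4), against 59.5 ± 108 (SD, n = 5) in hippocampus, a ratio of 31.5. On the scale of log2(value + 1) the difference was 7.65 with a standard error of 1.66.

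The other member of the D1 class, Drd5, was nearly absent. It had 21 reads in hippocampus replicate 3 (21.7 normalized counts) and 2 reads in SCO replicate 3 (1.83), and none in the other libraries. The mean in SCO was 0.457 ± 0.913 (SD, n = 4), against 4.33 ± 9.69 (SD, n = 5) in hippocampus, and the log2 difference was -0.53 with a standard error of 1.04. An antisense gene, Gm26560, shares 48.6% of the Drd5 exon bases, and over all libraries it had 12 reads where Drd5 had 23. Whether the authors counted reads by strand is not stated in the sources at hand, so reads of the 2 genes cannot be told apart.

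The D2 class receptors were low, and most reads of each came from 1 or 2 libraries. Drd2, which is also the autoreceptor of dopamine neurons, was at 0 in SCO replicates 1 to 3 and at 51.5 normalized counts in replicate 4. In hippocampus it lay at 0, 0, 1.03, 26.7 and 1.52. Each tissue thus had 1 library well above its others, the tissues overlapped, and the log2 difference was -0.00 with a standard error of 1.46. Drd3, known from the islands of Calleja and the nucleus accumbens, had 1 read in SCO replicate 4 and 1 read in hippocampus replicate 4. It was the only member left out by the filter on low values, which asked for a mean of at least 1 normalized count in either tissue.

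Drd4 had 0, 8.86, 0 and 177 normalized counts in SCO and 38.7, 0, 0, 0 and 0 in hippocampus. Its reads thus sat in 2 SCO libraries and 1 hippocampus library. The means were 46.4 ± 87.0 (SD, n = 4) and 7.74 ± 17.3 (SD, n = 5), and the log2 difference was 1.63 with a standard error of 1.75. SCO replicate 4 was the highest SCO library for Drd2, Drd3 and Drd4 and also for the summed choroid plexus genes. It was also the highest SCO library for Th (218 normalized counts), Dbh (293) and Foxa2 (191), genes of the dopamine lists given below. Lmx1b of the same lists was highest in SCO replicate 2 (663) and Nr4a2 in replicate 1 (7802). Whether cells marked by any of these genes contributed the reads was not tested. Without SCO replicate 4 the SCO held no read of Drd2 or Drd3 and 6 reads of Drd4.

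Drd1 made up 100%, 99.7%, 99.9% and 78.6% of the summed normalized counts of the 5 dopamine receptor genes in SCO replicates 1 to 4. Replicate 4 was the low one, through its Drd2 and Drd4. In hippocampus the Drd1 share was 55.1%, 100%, 0%, 90.2% and 0%, over sums that held few reads outside replicate 4.

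**Figure D1:**
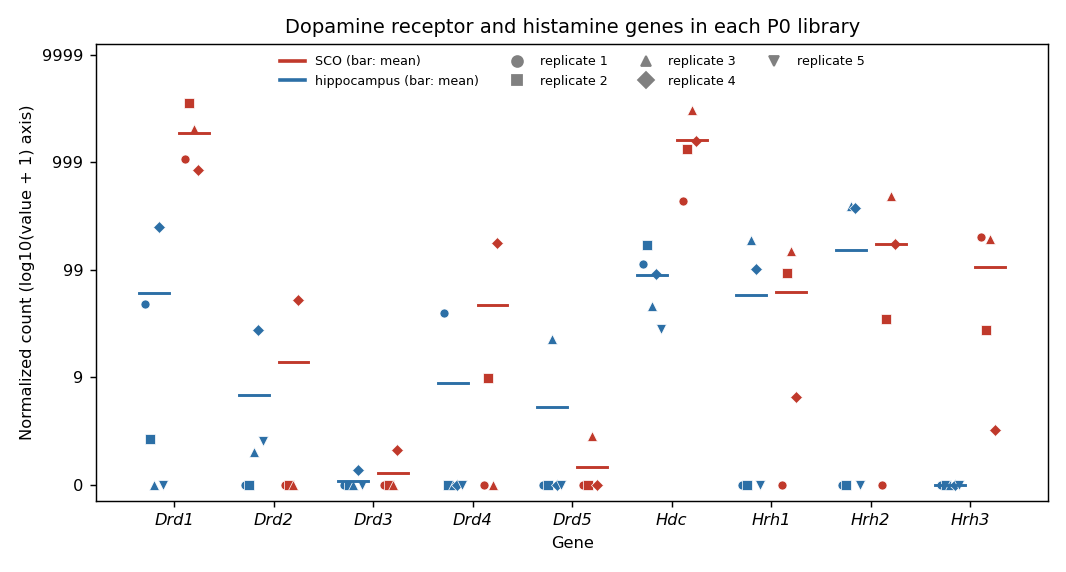
Normalized counts of the 9 genes in each P0 library, on a log10(value + 1) axis with the untransformed values written on it; each marker is 1 library, its shape the replicate number, and the horizontal bars are tissue means. All SCO values of Drd1, Hdc and Hrh3 lie above all hippocampus values, and Hdc alone has reads in all 9 libraries.

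Hdc was the most evenly detected member, with reads in all 9 libraries. The gene lies at chr2:126593667-126619299 (minus strand), and the printed window starts within that span, in no annotated exon, because a longer transcript begins farther upstream. SCO libraries held 431, 1338, 3062 and 1583 normalized counts, from 289, 906, 3353 and 1414 reads. Hippocampus libraries held 112, 170, 45.4, 90.7 and 27.0, from 90, 103, 44, 248 and 71 reads. Every SCO library was high, replicate 1 least so, and the lowest SCO value was 2.54 times the highest hippocampus value. The means were 1603 ± 1091 (SD, n = 4) and 89.1 ± 56.7 (SD, n = 5), a ratio of 18.0, and the log2 difference was 4.12 with a standard error of 0.74. In whole tissue, more cells of a type and more RNA per cell cannot be told apart, for Hdc as for every gene here.

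Genes of mast cells, which store histamine, gave values that differed from gene to gene, and their part in the Hdc counts was not tested. Of 13 mast cell genes listed, 7 were in the table and tested, and limma called 0 of them, with 2 at an unadjusted p under 0.05 (Kit and Hpgds). On the recovered reads edgeR called 0 and DESeq2 called 2 (Cma1 and Kit). The median log2 difference was 0.78, against -0.04 over all genes tested, and the summed level ran from 3585 to 8734 in SCO and from 2466 to 8556 in hippocampus.

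The single mast cell genes were named after their values were seen, apart from Mcpt4, which had no read in hippocampus. Hpgds, a prostaglandin D synthase, lay at 1019, 2273, 2438 and 1423 normalized counts in SCO and between 822 and 1284 in hippocampus, and like Hdc it was lowest in SCO replicate 1 and highest in replicate 3. The summed level of 11 microglia and macrophage genes was likewise lowest in SCO replicate 1 (42024) and highest in replicate 3 (59996). Which cells gave the Hpgds reads was not tested. Kit, the stem cell factor receptor, which neurons express too, lay between 1428 and 2271 in SCO and between 1473 and 6729 in hippocampus. The mast cell protease genes differed from Hpgds and were at 0 or 1 read in several libraries. Among the SCO libraries they were highest in replicate 1, the one with the least Hdc. In SCO, Cpa3 lay at 531, 0, 0.913 and 0, Cma1 at 303, 0, 0 and 162, Tpsb2 at 377, 0, 0 and 0, and Mcpt4 at 113, 0, 0 and 0. In hippocampus Cpa3 reached 358 in replicate 5 and 66.0 in replicate 3, Tpsb2 was found in replicate 4 alone, at 110, and Cma1 had 1 read.

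Tph1, the serotonin-forming enzyme of the pineal gland and of mast cells, was confined to SCO replicate 1 among the SCO libraries apart from 1 read, with 4962, 0, 0.913 and 0 normalized counts. In hippocampus Tph1 lay at 167, 170, 21.7, 675 and 0. Pineal genes were checked because the gland lies beside the SCO. Of 12 tested, Otx2 and Lhx9 were higher in SCO (log2 differences of 9.55 and 1.73, limma adjusted p = 0.00360 and 0.0246) and none was lower. The Lhx9 call was lost in 5 of 20 alternatives, among them the fits without SCO replicate 1 or 2 or hippocampus replicate 4 (limma adjusted p from 0.0504 to 0.0627). Otx2 is a homeobox gene of the midbrain and of the pineal gland. The photoreceptor and pineal genes Crx and Rcvrn were at 0 in SCO. Bsx and Isl2 were at 0 in hippocampus, and in SCO both were found in replicate 1 alone, at 692 and 8.95 normalized counts. The list summed to 11620 to 22114 in SCO and 1718 to 3188 in hippocampus, with its highest value in SCO replicate 1. In SCO, Otx2 made up 7705 to 8708 of that sum. Lhx9, listed also for habenula, thalamus and pretectum, made up 2669 to 5935. The part of the pineal list in the member values was not tested.

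Hrh3, the inhibitory histamine receptor, had no read in hippocampus. The gene lies at chr2:180099465-180104488 (minus strand). Its SCO libraries held 198, 26.6, 191 and 2.24 normalized counts, from 133, 18, 209 and 2 reads. Replicates 1 and 3 were high, replicate 2 was lower and replicate 4 was close to 0, below the 3 reads taken as the limit that a count of 0 allows. In hippocampus that limit lay between 1.10 and 4.95 normalized counts, depending on the library. The SCO mean of 105 ± 105 (SD, n = 4) was at least 37.2-fold higher than the hippocampus at 3 reads per library, and the fitted log2 difference was 5.43 with a standard error of 1.27.

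The Hrh3 reads could not be assigned to a strand. The antisense gene Gm17180, named after its values were seen, lies within Hrh3, and 80.2% of its exon bases are also exon bases of Hrh3. It had 170, 23.6, 181 and 0 normalized counts in SCO and none in hippocampus, close to Hrh3 library by library. Over all libraries Gm17180 had 328 reads and Hrh3 362. The shared bases make up 11.1% of the exon bases of Hrh3. How many reads the 2 genes share is not given in the table.

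The values of the other histamine receptors overlapped between the tissues. Hrh2, known from gastric parietal cells and also expressed in brain, held 0, 34.0, 489 and 173 normalized counts in SCO and 0, 0, 394, 371 and 0 in hippocampus. Libraries of both tissues were either at 0 or well above it, and the means of 174 ± 223 (SD, n = 4) and 153 ± 210 (SD, n = 5) differed by a ratio of 1.14. Hrh1, the receptor blocked by classical antihistamines, held 0, 93.0, 148 and 5.60 in SCO and 0, 0, 189, 99.5 and 0 in hippocampus. Its means were 61.6 ± 71.6 (SD, n = 4) and 57.7 ± 85.0 (SD, n = 5), a ratio of 1.07. The log2 differences were 1.94 with a standard error of 2.55 for Hrh2 and 1.28 with a standard error of 2.20 for Hrh1.

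Hrh1 and Hrh2 had reads in the same 5 libraries, SCO replicates 2, 3 and 4 and hippocampus replicates 3 and 4, and none in the other 4. The genes lie on different chromosomes, Hrh1 at chr6:114397936-114483296 and Hrh2 at chr13:54192129-54236180. Hrh2 lies 136 kb from Drd1, and the protein-coding gene between them, Sfxn1, had means of 6812 in SCO and 7471 in hippocampus. An antisense gene, Gm16578, shares 2.44% of the Hrh2 exon bases and reached 245 normalized counts in SCO replicate 3, against 7.22 and 16.5 in hippocampus replicates 3 and 4.

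Read together, the members showed 2 kinds of pattern. Hdc, Drd1 and Hrh3 had reads in all 4 SCO libraries, and the other 6 were at 0 in at least 1 library of each tissue. The number of members with reads was 3, 6, 6 and 8 in SCO replicates 1 to 4 and 3, 2, 5, 6 and 2 in hippocampus replicates 1 to 5. Of the 8 members tested, 6 had a positive and 2 a negative difference. The median of the 8 was 1.79, against -0.04 over 28150 genes. Across those genes, limma called 859 (3.05%) at an adjusted p under 0.05, with 481 (1.71%) higher in SCO and 378 (1.34%) lower. Drd1, Hdc and Hrh3 were among those called higher. Since the set was chosen for this contrast, nothing is read from that count, from the signs or from the median of the 8. In 4.78% of the genes tested every SCO value lay above every hippocampus value.

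The 3 calls describe the values that chose the set and support nothing further, and other settings ended them. The Hdc call was lost without SCO replicate 3 and with a replicate block. The Drd1 call was lost in 12 of 20 alternatives, among them every fit without 1 SCO library and those without hippocampus replicate 2, 3 or 5, and the Hrh3 call in 15 of 20, among them every fit without 1 library other than SCO replicate 4. With 1 library left out the log2 difference ranged from 6.91 to 8.90 for Drd1, from 3.70 to 4.64 for Hdc and from 4.69 to 6.67 for Hrh3.

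**Figure D2:**
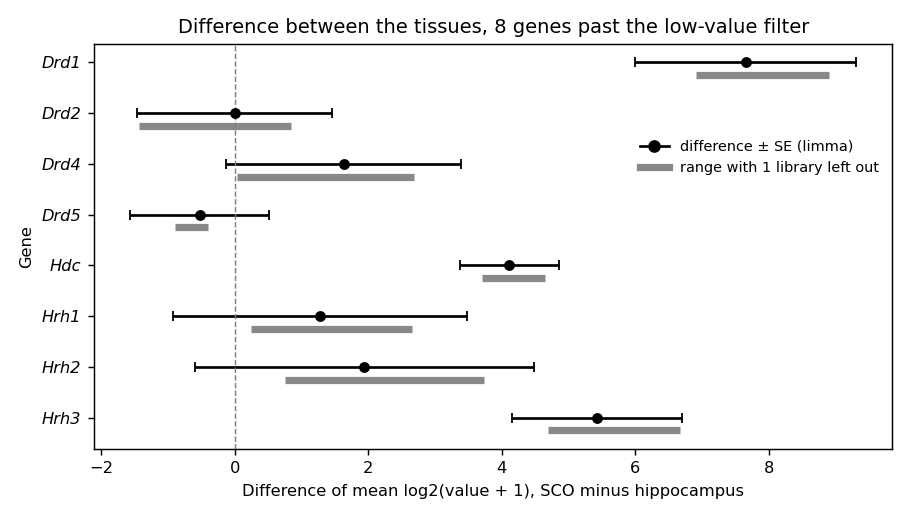
Difference of mean log2(value + 1), SCO minus hippocampus, for the 8 genes past the filter; points are limma differences, whiskers their standard errors, and grey bars the range when 1 of the 9 libraries is left out. The points of Drd1, Hdc and Hrh3 lie above 4, while the grey bar of Hdc reaches down to 3.70. The whiskers of Drd2, Drd5, Hrh1, Hrh2 and Drd4 cross 0.

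In the authors' deposited table the log2 fold changes were 4.97 for Drd1, 4.18 for Hdc and 9.50 for Hrh3, with standard errors of 1.61, 0.67 and 2.04. For the others the authors' deposited table gave 1.13 for Drd2, 0.79 for Drd3, 2.59 for Drd4, -2.97 for Drd5, 0.10 for Hrh1 and 0.19 for Hrh2, with standard errors from 2.50 to 3.35. The authors' deposited table has an adjusted p for 5 of the 9 members, under 0.05 for 3 of them: Drd1, Hdc and Hrh3. Over its 21475 genes with an adjusted p, 6.98% were under 0.05 and higher in SCO.

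To compare levels between genes, normalized counts were divided by the kilobases of all annotated exons of each gene. In SCO the order of mean levels per kb was Drd1 (517, range 233 to 972), Hdc (251, range 67.5 to 479), Hrh3 (33.2, range 0.712 to 63.1), Hrh2 (29.3, range 0 to 82.3), Hrh1 (13.9, range 0 to 33.2) and Drd4 (13.7, range 0 to 52.3). Drd2 (5.05), Drd3 (0.163) and Drd5 (0.145) followed. The ranges of Drd1 and Hdc overlapped, as did those of Hrh3, Hrh2, Hrh1 and Drd4, whereas Hdc in its lowest library exceeded the highest library of Hrh3 and of Drd4. With the longest transcript as the length, Hrh2 moved ahead of Hrh3 (41.2 against 38.6) and Drd4 ahead of Hrh1 (16.6 against 16.3).

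In hippocampus the order of mean levels per kb differed: Hrh2 (25.8, range 0 to 66.4), Drd1 (16.4, range 0 to 68.5), Hdc (13.9, range 4.23 to 26.6), Hrh1 (13.0, range 0 to 42.4), Drd2 and Drd4 (2.30 and 2.29), Drd5 (1.37), Drd3 (0.0427) and Hrh3 (0). The ranges of the first 4 overlapped, and the means above 0 of all but Hdc rested mostly on 1 or 2 libraries, so their order is not firm. Among 27621 tested genes with an exon length, the SCO level per kb of Drd1 ranked above 77.8% and that of Hdc above 67.4%. In hippocampus those ranks were 28.2% and 26.5%. Hrh1 and Hrh2 ranked at 25.2% and 33.1% in SCO and 25.7% and 33.4% in hippocampus.

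**Figure D3:**
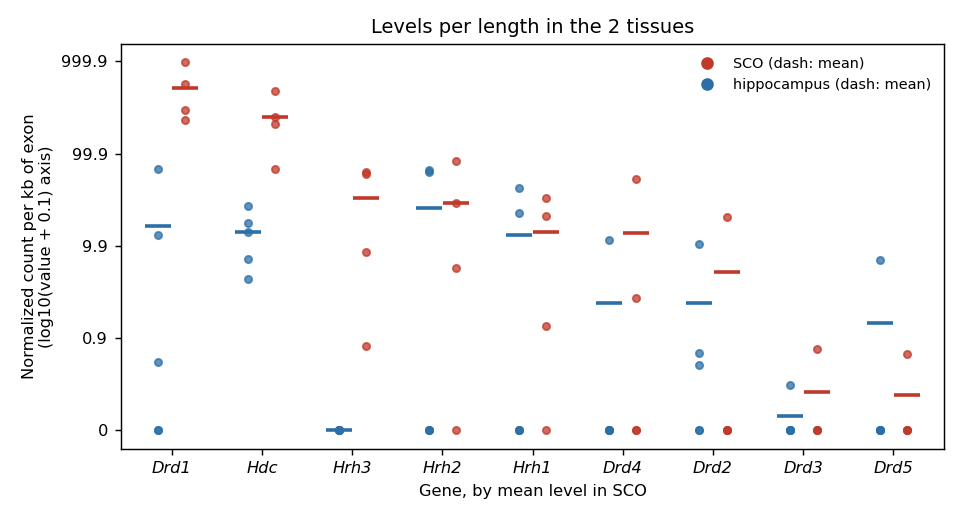
Normalized counts per kb of exon for the 9 genes, ordered by mean level in SCO, on a log10(value + 0.1) axis with the untransformed values written on it; each dot is 1 library and each dash a tissue mean. Drd1 and Hdc lead in SCO with means of 517 and 251, and Hrh3 is at 0 in all 5 hippocampus libraries.

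No gene that makes or handles dopamine passed the threshold in limma: all 13 listed were tested, limma called 0, and their median log2 difference was 0.44. At an unadjusted p under 0.05 there were 2, edgeR called 0, and DESeq2 called 1. Th, tyrosine hydroxylase, the rate-limiting enzyme of dopamine synthesis, lay at 2.98, 0, 0 and 218 normalized counts in SCO, and in hippocampus only replicate 3 had reads (82.5). The log2 difference was 1.17 with a standard error of 1.91 (limma adjusted p = 0.781). Slc6a3, the dopamine transporter, was at 0 in SCO and was found in hippocampus replicate 2 alone, at 439. Ddc, which makes both dopamine and serotonin from their precursors, averaged 928 ± 160 (SD, n = 4) in SCO against 451 ± 301 (SD, n = 5) in hippocampus and did not pass the test (limma adjusted p = 0.291).

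The vesicular monoamine transporter Slc18a2, which loads dopamine and histamine into vesicles, held 822, 62.0, 0 and 472 normalized counts in SCO. Its means were 339 ± 384 (SD, n = 4) and 1156 ± 620 (SD, n = 5) in hippocampus, and the difference of -3.71 had a standard error of 1.72 (limma adjusted p = 0.337). SCO replicate 3, the highest in Hdc, had no read of it. Of 5 tested regulators of dopamine neurons, limma called 0, with 1 at an unadjusted p under 0.05, and their median was -0.04. That gene was Lmx1b, a transcription factor of midbrain monoamine neurons, named after its values were seen. It held 148, 663, 0 and 217 normalized counts in SCO and 0, 0, 0, 0 and 12.9 in hippocampus, with a log2 difference of 5.33 and a standard error of 1.85 (limma adjusted p = 0.178). DESeq2 called it (adjusted p = 0.0472), edgeR did not (adjusted p = 0.231), and limma called it without SCO replicate 3 (adjusted p = 0.0234). Foxa2 and En2, transcription factors of midbrain dopamine neurons, had reads only in SCO replicate 4, at 191 and 2.24. That library had the high choroid plexus sum and also the highest SCO values of Th (218) and Dbh (293).

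Among 24 genes that carry the signal of dopamine receptors, limma called 1 higher in SCO and 1 lower, and the list's median was -0.23. At an unadjusted p under 0.05 in limma there were 10, edgeR called 1, and DESeq2 called 3. Adcy1, a calcium-stimulated adenylyl cyclase, was lower, at 461 ± 239 (SD, n = 4) against 2853 ± 682 (SD, n = 5), a log2 difference of -2.77 with a standard error of 0.44 (limma adjusted p = 0.00750). Adcy8, another calcium-stimulated cyclase, was higher, at 1142 ± 421 (SD, n = 4) against 214 ± 112 (SD, n = 5), with a difference of 2.52 and a standard error of 0.55 (limma adjusted p = 0.0375). The Adcy8 call was lost in 11 of 20 alternatives, among them each fit without 1 SCO library and those without hippocampus replicate 3, 4 or 5 (limma adjusted p from 0.0502 to 0.108). Gnal, the stimulatory G protein subunit that couples D1 receptors in striatum, had means of 5734 ± 1489 (SD, n = 4) and 4902 ± 1239 (SD, n = 5), with a difference of 0.22 and a standard error of 0.28 (limma adjusted p = 0.707).

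Drd1 is best known from striatal projection neurons, and their other genes moved in no common direction. Of 18 tested, limma called 2 higher in SCO and 1 lower, with a median of -0.36. There were 9 at an unadjusted p under 0.05 in limma, edgeR called 1, and DESeq2 called 4. Tac1, which encodes substance P, was higher at 3343 ± 286 (SD, n = 4) against 497 ± 390 (SD, n = 5), with a log2 difference of 3.22 and a standard error of 0.67 (limma adjusted p = 0.0293). Foxp2, a transcription factor found also in thalamus and midbrain, was higher at 1820 ± 474 (SD, n = 4) against 329 ± 214 (SD, n = 5), a difference of 2.65 with a standard error of 0.50 (limma adjusted p = 0.0191). Foxp1 was lower at 1434 ± 946 (SD, n = 4) against 4938 ± 1123 (SD, n = 5), a difference of -1.96 with a standard error of 0.40 (limma adjusted p = 0.0287). Ppp1r1b, which encodes the striatal phosphoprotein DARPP-32, lay at 737, 0, 0 and 698 in SCO, so that the 2 SCO libraries richest in Drd1 had no read of it. Its hippocampus mean was 837 ± 234 (SD, n = 5), and it did not pass the test (limma adjusted p = 0.276).

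Of those 3 calls, Foxp2 was lost without SCO replicate 3 (limma adjusted p = 0.0623) and with the replicate block. Tac1 was lost without any 1 of the SCO libraries or hippocampus replicate 3 or 4 (limma adjusted p from 0.0639 to 0.0758). It was also lost with edgeR (adjusted p = 0.0584) and with the replicate block (limma adjusted p = 0.0784). Foxp1 was lost without SCO replicate 1, 2 or 3 or hippocampus replicate 1, 3 or 5 (limma adjusted p from 0.0542 to 0.0765). The Foxp1 call was lost with edgeR (adjusted p = 0.0678) and with the replicate block (limma adjusted p = 0.167) too.

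For histamine, breakdown and transport genes and the fourth receptor gave 0 calls among 8 tested with limma, edgeR or DESeq2, and 0 at an unadjusted p under 0.05 in limma, with a median of 0.25. Hnmt, the methyltransferase that inactivates histamine in brain, held 1.49, 1669, 1796 and 2168 normalized counts in SCO and a mean of 1599 ± 699 (SD, n = 5) in hippocampus, so it was close to 0 only in the SCO library with the least Hdc. Its log2 difference of -2.08 had a standard error of 1.75 (limma adjusted p = 0.605).

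Among 15 genes that carry the signal of histamine receptors, limma called 1 higher and 1 lower in SCO, and the median was -0.46. At an unadjusted p under 0.05 in limma there were 6, edgeR called 2, and DESeq2 called 3. Itpr3, an inositol trisphosphate receptor that releases stored calcium downstream of Gq-coupled receptors such as Hrh1, was higher. It held 179, 251, 514 and 228 normalized counts in SCO and 0, 1.65, 2.06, 0.731 and 0.381 in hippocampus, and the tissues were far apart. The log2 difference was 7.22 with a standard error of 0.92 (limma adjusted p = 0.00230), and the call was lost only with the replicate block (limma adjusted p = 0.0594). Gna11, a Gq family subunit, was lower at 4892 ± 725 (SD, n = 4) against 10264 ± 1560 (SD, n = 5), a difference of -1.07 with a standard error of 0.20 (limma adjusted p = 0.0199). The Gna11 call was lost without SCO replicate 2 or hippocampus replicate 1, 3 or 4 (limma adjusted p from 0.0554 to 0.0624). It was also lost with the replicate block (limma adjusted p = 0.110). Plcb2, a phospholipase C, had no read in SCO.

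**Figure D4:**
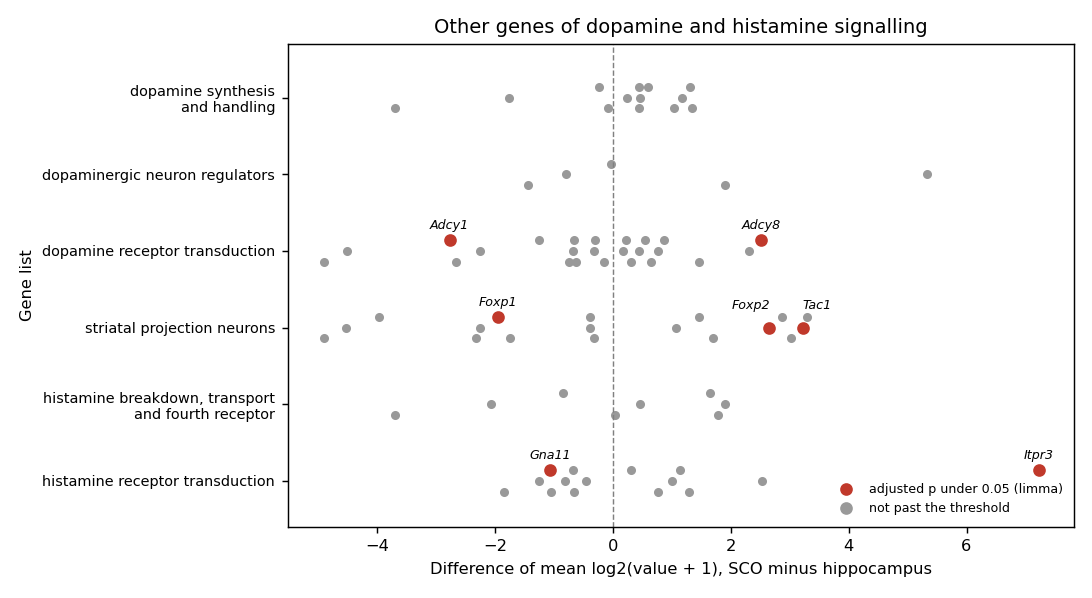
Difference of mean log2(value + 1), SCO minus hippocampus, for the tested genes of 6 lists around dopamine and histamine signalling, members left out; each dot is 1 gene, and vertical offsets only separate dots. The 7 named red genes passed an adjusted p under 0.05, 4 of them to the right of 0 and 3 to the left, and the lists on dopamine synthesis, its regulators and histamine breakdown hold none.

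Markers of other cells differed between the tissues in the same libraries, and their part in the member values was not tested. Of 19 tested genes that mark neurons of the habenula, thalamus and pretectum, 8 were higher and none lower, and the list summed to 60164 to 93163 in SCO and 7975 to 13740 in hippocampus. Gata3, Tfap2b and Irx2 had the largest differences among the 8 (10.05, 9.97 and 8.01), and Gbx2, Irx1, Irx3 and Gpr151 were at 0 in hippocampus. Ependymal and cilia genes were higher for 7 of 12 and lower for none, endothelial genes for 2 of 11, and microglial genes, among them Ctss, for 2 of 11. Of 11 genes of radial glia and astrocytes, Ttyh1 and Vim were higher and Slc1a2 was lower, and the list summed to 154641 to 306253 in SCO and 142609 to 187077 in hippocampus. Genes of SCO cells were higher for 5 of 9, and summed to 21540 to 52213 in SCO and 1420 to 3165 in hippocampus.

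Of 15 tested genes of excitatory neurons of hippocampus and cortex, 13 were lower in SCO, and the list summed to 4398 to 6555 there, against 103713 to 128229 in hippocampus. Genes of GABAergic interneurons were lower for 5 of 15 and higher for 1, Calb2, and Dlx1, Dlx2 and Dlx6 were at 0 in SCO. Of 13 choroid plexus genes limma called 0, with 4 at an unadjusted p under 0.05, edgeR called 0 and DESeq2 called 4. Of 10 meningeal genes limma, edgeR and DESeq2 called 0, with 0 at an unadjusted p under 0.05 in limma. The choroid plexus genes Kcnj13 and Tmem72 had no read in hippocampus, and Kl had none in SCO.

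The genes whose levels most resembled a member were sought for Drd1, Hrh3 and Hdc by Pearson's correlation of log2(value + 1) over the 9 libraries, among 15222 genes. For Drd1 these were Nfam1 (r = 0.974), Spsb2 (0.970) and Papss2 (0.968), all of which shared its raised value in hippocampus replicate 4, at 181, 272 and 334 normalized counts against 62.4 or less in the other hippocampus libraries. For Hrh3 they were Ctse (0.970), Prrxl1 (0.964) and Ttc39a (0.958), which were at 0 in all hippocampus libraries and lowest in SCO replicate 4. For Hdc they were Tekt1 (0.972), a gene of motile cilia, Cd81 (0.970) and Nap1l5 (0.966), which had reads in all libraries. The 9 libraries fall into the 2 tissues, so these correlations mostly describe a shared tissue difference, and no test is attached to them.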

How the data were processed

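RNA of 21 libraries was extracted with the RNeasy Micro Kit, and libraries were made with the TruePrep DNA Library Prep Kit V2, per the labels' protocols. FastQC, HISAT, HISAT2, featureCounts, DESeq2 and build GRCm38 are named in the submitters' processing notes. The deposited signal for each P0 library is its read count divided by 1 size factor: at a tolerance of 1e-06, 100% of values were whole multiples of 1 read. The authors' deposited columns of log2 fold change with its standard error, the score of their test and the p-value are quoted only where named. Whether reads were counted by strand, and the versions used, is not stated in the sources at hand.

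Values were compared as log2(value + 1) with limma 3.58.1 (R 4.3.3, mean-variance trend) over the 28150 genes that averaged 1 or more in SCO or in hippocampus, and p-values were adjusted by Benjamini-Hochberg, with a threshold of 0.05. The members and gene lists were chosen with earlier results of these data known. Alternatives were pseudocounts of 0.5 and 10, no filter or a mean of at least 10, robust moderation, TMM scaling, edgeR 4.0.16 and DESeq2 1.42.0 on the recovered reads, a replicate block, and leaving out libraries. The test was tried on simulated data first. Intervals from a count of 0 take 3 reads per library and cover counting error only. Exons and positions came from GENCODE M21 (GRCm38) and upstream bases from RefSeq.

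Beside the members, the text names genes of a pathway list past the threshold with a mean of at least 10 in the higher tissue (at most 6 a list), Th, Slc6a3, Slc18a2, Ddc, Hnmt, Ppp1r1b and Gnal whatever their values, marker genes at 0 in a whole tissue or among the 3 largest called differences of their list, and the 3 genes most like each of 3 members with a mean of at least 20. Sspo falls under that rule. Some genes under it are not reported here. Neighbouring and antisense genes and the mast cell genes Cpa3, Cma1, Tpsb2, Tph1, Hpgds and Kit were named after their values were seen. So were Lmx1b, Dbh, Nr4a2, Gad1, Gad2, Sst and Npy.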

Additional observations from a re-analysis of the deposited data

Results flagged for a closer look

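Each member was looked at in each tissue, which gave 17 groups of libraries besides Hrh3 in hippocampus, where all values were 0. Of the 17, 9 held a library whose gap to its nearest neighbour was large against the group's whole range. The rule is set to flag about 1 group in 20 by chance, but groups with reads in a single library are always flagged. The 9 therefore cannot be set against that rate. SCO replicate 4 was apart for Drd2 (51.5 normalized counts), Drd3 (1.12, from 1 read) and Drd4 (177). It is also the library with the highest choroid plexus sum and the highest SCO values of Th, Dbh and Foxa2. No link between them was tested. Hippocampus replicate 4, the deepest library, was apart for Drd1 (249), Drd2 (26.7) and Drd3 (0.366, from 1 read). Hippocampus replicate 1 was apart for Drd4 (38.7, from 31 reads). Replicate 3 was apart for Drd5 in both tissues, at 21.7 in hippocampus from 21 reads and 1.83 in SCO from 2 reads. No group of Hdc, Hrh1, Hrh2 or Hrh3 was flagged.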

How the results depend on the processing

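Under the 20 alternatives, Drd1, Hdc and Hrh3 stayed higher in SCO, and no called value of a named gene changed direction. The 859 genes called became 503 with edgeR, 2708 with DESeq2 and 498 to 1077 with 1 library left out, the lowest counts coming from leaving out hippocampus replicate 3 (498), SCO replicate 3 (564) or hippocampus replicate 1 (565). The 3 members called became 1 with edgeR or with no filter on low values, and 0 to 2 with 1 library left out. The 7 pathway genes called became 4 with edgeR, 12 with DESeq2 and 3 to 8 with 1 library left out. Leaving out SCO replicate 4 and hippocampus replicate 2 together, chosen after seeing the data, left 2 members called (Hdc and Hrh3).

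The labels do not say whether a replicate number shared by both tissues marks the same animals. Same-numbered libraries had correlations of deviations of -0.000601, -0.0248, 0.0189 and -0.0289. Pairs with different numbers ran from -0.0329 to 0.0569. Correlations this close to 0 cannot show whether the tissues came from shared animals. With the number as a replicate block, 180 genes, 0 members, 0 pathway genes and 22 pathway and marker list genes were called, against 54 such list genes in all 9 libraries without it, which include the 22. The same 8 libraries without the block, chosen after seeing the data, gave 723 genes and 1 member. Depth limits the low members: 1 read decided Drd3 in each tissue, and 2 reads decided that Hrh3 in SCO replicate 4 lay above hippocampus.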

Other observations

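Genes next to the members were looked at by position, and those named here were chosen after their values were seen. Sct, which encodes the peptide hormone secretin, lies 12.9 kb from Drd4. It held 680, 726, 302 and 621 normalized counts in SCO and 1.25, 87.5, 0, 0 and 0 in hippocampus, so the tissues did not overlap. The log2 difference was 7.58 with a standard error of 1.43 (limma adjusted p = 0.0187). The call was lost with edgeR (adjusted p = 0.245), with DESeq2 (adjusted p = 0.0534) and in limma without SCO replicate 1 or 2 (adjusted p = 0.0540 and 0.0562). It was also lost with the replicate block (limma adjusted p = 0.0861). Deaf1, on the other side of Drd4 at 0.716 kb, did not pass the threshold (limma adjusted p = 0.368).

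Slc27a2, which encodes an acyl-CoA synthetase of fatty acid uptake, lies 5.42 kb from Hdc and held 343, 1053, 942 and 513 normalized counts in SCO and 0, 59.4, 0, 45.3 and 0 in hippocampus. Its log2 difference was 7.05 with a standard error of 1.53 (limma adjusted p = 0.0351). The call was lost without any 1 SCO library or hippocampus replicate 1, 3 or 5 (limma adjusted p from 0.0628 to 0.0972), and with edgeR (adjusted p = 0.221). It was also lost with no filter on low values (limma adjusted p = 0.0540) and with the replicate block (limma adjusted p = 0.111). Gabpb1, on the other side of Hdc at 8.14 kb, had a difference of 0.08 (limma adjusted p = 0.940). Cplx2, a gene of synaptic vesicle release 135 kb beyond Hrh2, was lower in SCO by a log2 difference of -2.61 with a standard error of 0.44 (limma adjusted p = 0.0107). Mtg2 and Osbpl2, on either side of Hrh3, had differences of -0.13 and 0.01.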
